A study of Mus musculus with 6 samples.

Results

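Interferon-stimulated antiviral genes were followed in TKPTS cells, a mouse line labelled as renal proximal tubule cells, with and without a plasmid for HNF3α, a forkhead transcription factor whose gene symbol is Foxa1. The genes were 49 symbols with textbook antiviral or interferon-response roles, listed by name with earlier results of these data known. All 49 were found among the 29595 genes of the table, and all 49 had enough counts to be tested, as had 17824 genes in all. Cells of the Hnf3a group (3 libraries) received the pcDNA3.1-Hnf3a-Flag plasmid, and cells of the pcDNA group (3 libraries) received pcDNA3.1-Flag. Both groups were thus transfected with plasmid DNA, and RNA was taken 24 h later. No untransfected group and no interferon-treated group was analysed here, so the values compare 2 transfected states. Whether the 3 libraries of a group came from separate cultures is not given in the labels, so p-values measure only the spread between these libraries, which may be technical.

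Type I interferons are secreted when a cell senses foreign RNA or DNA in its cytoplasm or endosomes. They bind a receptor that activates the kinases JAK1 and TYK2, and phosphorylated STAT2 enters a complex with IRF9 that binds the interferon-stimulated response element, a short DNA motif built on a repeated GAAA. The genes switched on in this way code for sensors of viral nucleic acid, enzymes that degrade or edit RNA, proteins that block translation or viral entry, and the ISG15 conjugation system, whose members tag other proteins and then remove the tag. Kidney epithelial cells carry the receptor and can respond to interferon.

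The response element was searched for first, since it is the sequence these genes are known to share. RefSeq promoters of the GRCm38.p6 build, from 250 bases before to 50 bases after an annotated start, were at hand for 36 of the 49 genes. The other 13 were Dhx58, Zbp1, Ifi204, Oas1b, Oas2, Mx1, Mx2, Usp18, Parp9, Parp14, Tor3a, Rtp4 and Ifi27l2a. The core of the response element, here GAAA followed by any 2 bases and again GAAA, searched on both strands with overlapping matches counted, was present in 17 of the 36 genes (47.2%) and in 1079 of 27025 genes with a promoter entry (3.99%). The forkhead core TGTTTAC was present in 1 of the 36 genes (2.78%), Rsad2, where it began 212 bases before the start, and in 1095 of the 27025 genes (4.05%). A match of letters is a description and not a site shown to be bound. The 160 bases upstream of the start are printed below for 6 genes with a match, among them some of the most abundant members and 2 pairs of close copies, and for 2 members that were lower in the Hnf3a group and had no match. The bases of each match are in capitals, the rest is in lower case, and the strand is that of the gene, 5′ to 3′.
Isg15 (chr4:156200819-156200978, minus strand): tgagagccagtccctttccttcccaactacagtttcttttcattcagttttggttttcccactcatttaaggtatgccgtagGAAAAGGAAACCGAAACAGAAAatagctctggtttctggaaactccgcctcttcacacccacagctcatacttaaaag
Ifit3 (chr19:34583369-34583528, plus strand): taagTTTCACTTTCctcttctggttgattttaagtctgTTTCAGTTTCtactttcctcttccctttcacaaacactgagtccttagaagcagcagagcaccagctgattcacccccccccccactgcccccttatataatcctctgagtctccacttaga
Ifit3b (chr19:34607797-34607956, plus strand): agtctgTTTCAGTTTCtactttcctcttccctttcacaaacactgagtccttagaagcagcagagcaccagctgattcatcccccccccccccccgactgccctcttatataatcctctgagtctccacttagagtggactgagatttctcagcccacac
Oas1a (chr5:120907526-120907685, minus strand): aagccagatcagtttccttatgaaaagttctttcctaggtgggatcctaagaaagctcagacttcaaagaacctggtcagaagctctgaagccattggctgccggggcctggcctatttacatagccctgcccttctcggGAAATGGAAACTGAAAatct
Oas1g (chr5:120887614-120887773, minus strand): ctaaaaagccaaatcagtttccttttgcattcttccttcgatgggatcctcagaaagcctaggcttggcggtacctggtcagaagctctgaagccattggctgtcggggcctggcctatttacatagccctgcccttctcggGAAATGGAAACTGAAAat
Rsad2 (chr12:26456453-26456612, minus strand): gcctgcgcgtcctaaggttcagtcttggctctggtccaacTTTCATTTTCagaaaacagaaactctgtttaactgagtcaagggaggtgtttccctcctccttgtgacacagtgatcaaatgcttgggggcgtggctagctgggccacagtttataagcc
Ifit2 (chr19:34550534-34550693, plus strand): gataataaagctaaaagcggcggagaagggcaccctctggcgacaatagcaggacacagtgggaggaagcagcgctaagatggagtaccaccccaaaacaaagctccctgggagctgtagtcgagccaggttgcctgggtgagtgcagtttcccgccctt
Herc6 (chr6:57580832-57580991, plus strand): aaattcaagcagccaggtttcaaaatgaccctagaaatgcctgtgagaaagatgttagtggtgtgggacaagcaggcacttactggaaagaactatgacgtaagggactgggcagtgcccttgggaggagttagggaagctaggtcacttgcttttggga

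In the Isg15 promoter 3 overlapping matches stood in a row, beginning 78, 72 and 66 bases before the start. Ifit3 had 2 matches on the opposite strand, where the core reads as TTTC repeats, and Ifit3b had the same 2, of which the one beginning 188 bases before its start lies outside the window printed. Oas1a and Oas1g carried the identical stretch of 2 overlapping matches within 20 bases of the start. Ifit2 and Herc6 had no match in their entries, which says only that these letters are not in the windows searched.

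The libraries were alike in size and the plasmid was expressed. Total estimated counts ranged from 60473818 to 71154667, with 1 sequenced fragment worth up to about 4 counts. In the order of replicates 1, 2 and 3, which is kept for all values below, Foxa1 was at 334, 296 and 284 FPKM (sequenced fragments for each kilobase of transcript, corrected for library size) in the Hnf3a group against 9.49, 9.54 and 9.96 FPKM in the pcDNA group. The change on the log2 scale, Hnf3a over pcDNA, was 4.97 (SE 0.0666, edgeR). Epithelial markers were well expressed (Cdh1, Epcam, Krt8, Krt18 and Krt19 at 102 to 250.3 FPKM, Pax8 at 27.5 to 31.4 FPKM), whereas the receptors Lrp2 and Cubn, the transporter Slc5a2 and the factor Hnf4a, which define the differentiated proximal tubule, were at 0.0699 FPKM or less in every library. Hnf3a replicates 2 and 3 also held counts of fibroblast and leukocyte genes. Of 12 fibroblast markers, 5, 12 and 12 were above the detection floor of 12 counts with HNF3α, against 2, 4 and 4 with the empty plasmid, with summed levels of 0.441, 8.57 and 10.5 FPKM against 0.286 to 0.322 FPKM. Of 17 leukocyte markers, 5, 15 and 15 were above it, against 6, 7 and 5, with summed levels of 37.9, 45.5 and 46.0 FPKM against 51.6 to 54.2 FPKM. These leukocyte sums were led by Cd14, a gene at 21.9 to 23.6 FPKM against 34.8 to 39.2 FPKM. Lyz2 had 0, 265 and 273 counts with HNF3α against 16, 44 and 6 with the empty plasmid. Itgax had 0, 60 and 73 counts against 0 in each, and C1qb had 0, 57 and 75 against 0, 10 and 0. Cd68, at 1021 to 1178 counts against 993 to 1074, overlapped between the groups. Cd163 was at or under the floor in every library, and Ptprc had at most 31 counts. The part of such counts in the results was not tested, and some values are also given without both of these libraries, an alternative chosen after seeing the data.

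The antiviral genes were abundantly expressed in both groups, and most lay slightly lower with HNF3α. Their mean levels over the 6 libraries ran from 2.91 to 880.0 FPKM with a median of 46.2, where the median of all tested genes was 3.35. Of the 49, 34 stood in the top 10% of tested genes by level and 44 in the top 25%. At an adjusted p under 0.05 (edgeR's quasi-likelihood test, Benjamini-Hochberg adjustment over all genes tested), 10 were lower and 1 was higher in the Hnf3a group. Over all 17824 genes tested, 2.13% were called lower and 1.04% called higher. The log2 fold change was below 0 for 42 of the 49 (49.8% of all genes), and their median was -0.075 against 0.00085 for all genes. FPKM values of the 2 groups did not overlap for 28 of the 49, with all Hnf3a libraries lower for 25 (8.7% of all genes) and all higher for 3 (10.3% of all genes), which were Ifih1, Ifit3 and Ifi27l2a. The standard error of the log2 fold change had a median of 0.033 over the 49 genes and 0.0886 over all genes tested, so that differences near 10% could pass the test here. The smallest p that exact permutation of 3 against 3 libraries allows is 0.1, so genes were not tested singly in that way. In bulk RNA, fewer cells expressing a gene and less RNA per cell cannot be told apart.

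**Figure D1:**
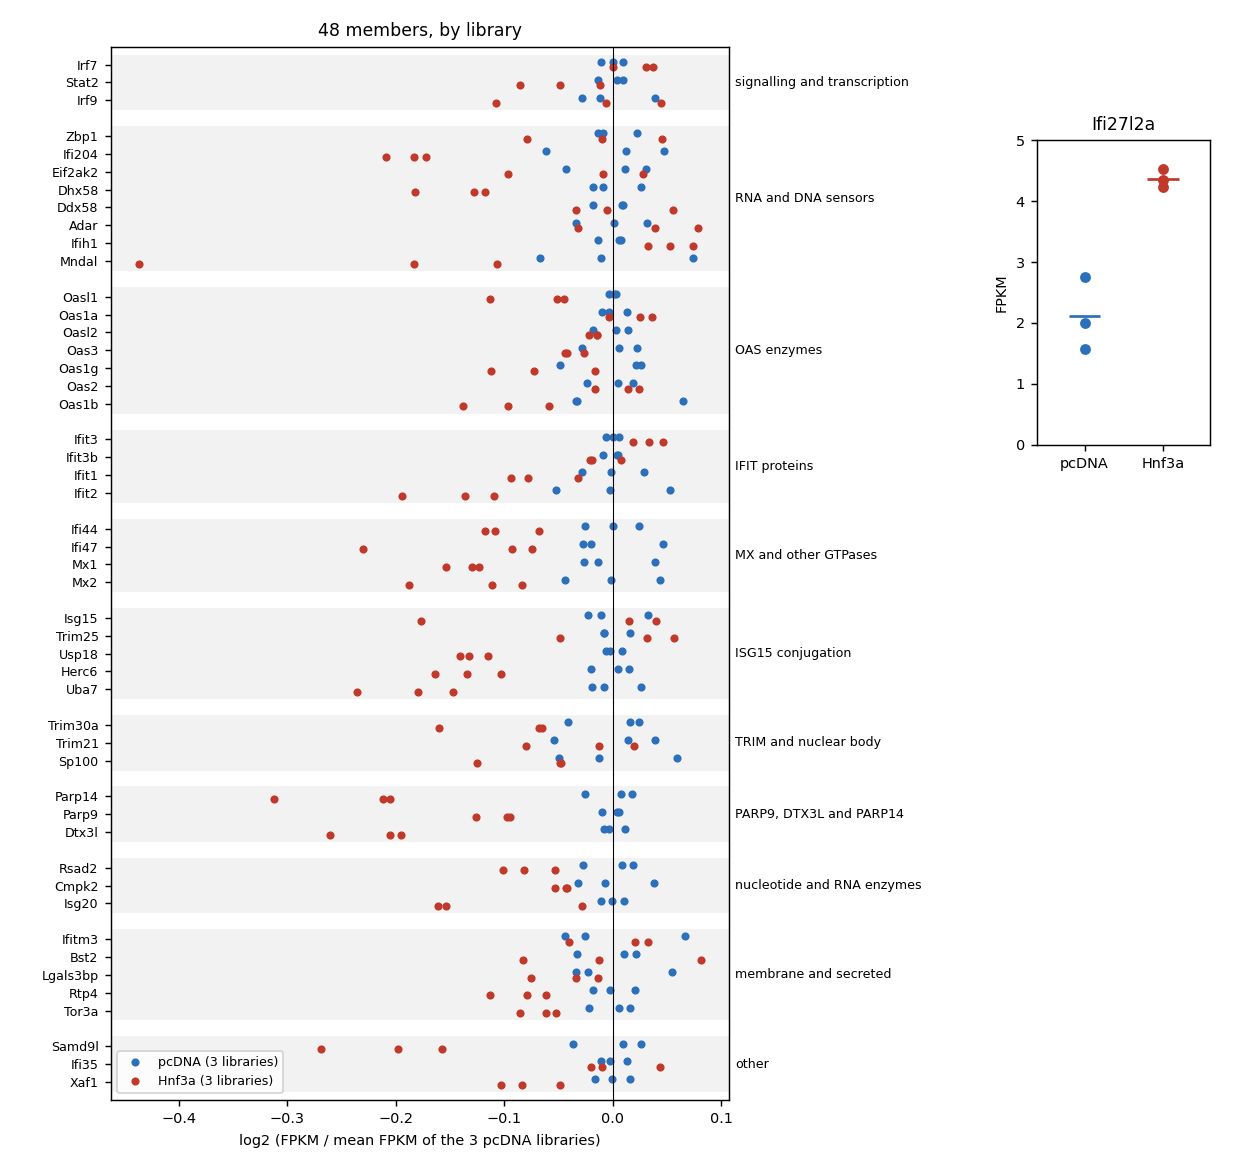
The left panel plots, for 48 genes arranged by family, the log2 ratio of the FPKM in each of the 6 libraries to the mean of the 3 pcDNA libraries, with pcDNA in blue and Hnf3a in red. The right panel plots the FPKM of Ifi27l2a in each library with the group means as lines. Red points lie to the left of the blue points for 25 genes, among them all members of the PARP9, DTX3L and PARP14 group and of the MX and other GTPases, while both colours mix for others such as Ifitm3 and Isg15.

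The shift was visible library by library. Summed over the 49 genes, the level was 6532, 6668 and 6708 FPKM in the Hnf3a group against 6775, 6810 and 6778 FPKM in the pcDNA group. All Hnf3a sums were below all pcDNA sums, and as a share of all FPKM they were 2.35% to 2.36% against 2.39% to 2.41%. The lowest of the 6 libraries was an Hnf3a library for 41 of the 49 genes, and it was replicate 3 for 22, replicate 1 for 16 and replicate 2 for 3. The highest was a pcDNA library for 34 genes. These counts of lowest and highest libraries were made for the 49 genes only, so no share over all genes stands beside them.

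Of the 49 genes, the one with the largest fitted decrease belonged to the PARP9, DTX3L and PARP14 group. PARP14 transfers single ADP-ribose units to proteins, and DTX3L is a ubiquitin ligase that works in a complex with PARP9. Parp14 (chromosome 16, 35832874 to 35871544, minus strand) was at 37.9, 37.7 and 35.2 FPKM in the Hnf3a group against 43.9, 44.2 and 42.9 FPKM in the pcDNA group. Every Hnf3a value was below every pcDNA value, and the group means of 36.9 ± 1.52 and 43.7 ± 0.688 FPKM (SD, n = 3 each) corresponded to a fitted decrease of 15.9% (log2 fold change -0.25, SE 0.0337, edgeR adjusted p 0.000754). Dtx3l was at 21.9, 22.1 and 21.1 FPKM against 25.1, 25.5 and 25.2 FPKM, again without overlap (log2 fold change -0.23, SE 0.0325, edgeR adjusted p 0.00114). Parp9, which shares its start region with Dtx3l on the opposite strand, was at 31.7 to 32.4 FPKM against 34.3 to 34.7 FPKM and did not pass the test (log2 fold change -0.11, SE 0.0304, edgeR adjusted p 0.0633). The annotated transcripts of Dtx3l and Parp9 share 367 bases on opposite strands. Whether counting used the strand is not given in the sources used here, so that part of their counts is uncertain. The 3 genes lie within chromosome 16, 35832874 to 35972605.

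Of the 4 genes outside the other families, Samd9l, which codes for a large cytoplasmic protein that restricts poxviruses, fell. It was at 77.7, 79.9 and 73.9 FPKM against 90.8, 89.7 and 86.8 FPKM, with no overlap between the groups. The fitted decrease was 13.9% (log2 fold change -0.22, SE 0.0331, edgeR adjusted p 0.00205). Parp14, Dtx3l and Samd9l were the members that kept an adjusted p under 0.05 whichever library was left out, with 0.0178, 0.0185 and 0.033 as their highest values. Ifi35 (log2 fold change -0.0032) and Xaf1 (-0.087, edgeR adjusted p 0.2) were not called.

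Ifi27l2a, a small hydrophobic protein of the IFI27 family, was the single member that rose. Its level was 4.23, 4.34 and 4.54 FPKM in the Hnf3a group against 1.57, 2.00 and 2.75 FPKM in the pcDNA group. The Hnf3a libraries were close together and all above the pcDNA libraries, which spread over a wider range. Its log2 fold change was 1.04 (95% interval 0.55 to 1.53, edgeR adjusted p 0.024). In Hnf3a replicate 1, 5 of 12 fibroblast and 5 of 17 leukocyte markers were above the floor, against 12 and 15 in each of replicates 2 and 3, and the part of such counts in this result was not tested. It was among the 4 least abundant members, and its adjusted p rose past the threshold when 1 library was left out, to 0.104 (Hnf3a replicate 2), 0.0766 (Hnf3a replicate 3), 0.115 (pcDNA replicate 1) or 0.128 (pcDNA replicate 2). With Hnf3a replicate 1 as the only Hnf3a library the log2 fold change was 1.001, a value from a group of 1 library. Its close relative Ifi27l2b (90.7% identical over 236 bases) had 0 to 12 counts in every library, and Ifi27, on the same chromosome, was at 15.97 to 18.7 FPKM and was not called (log2 fold change 0.073, edgeR adjusted p 0.7).

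In the ISG15 conjugation system 3 of 5 genes fell, namely Uba7, Herc6 and Usp18, where 2.13% of all genes tested were called lower. Isg15 and Trim25 were not called. Isg15, the ubiquitin-like tag, was one of the most abundant members, at 652, 745 and 758 FPKM in the Hnf3a group against 732, 754 and 726 FPKM in the pcDNA group. Hnf3a replicate 1 was low and the other 5 libraries overlapped, and the log2 fold change of -0.046 (SE 0.0474) did not pass the test (edgeR adjusted p 0.775). Uba7, which activates the tag, was at 9.63, 9.27 and 9.85 FPKM against 10.8, 11.1 and 10.9 FPKM, a decrease of 12.6% (log2 fold change -0.19, SE 0.0384, edgeR adjusted p 0.0127). Herc6, the ligase that attaches the tag in mice, was at 13.6, 13.3 and 13.03 FPKM against 14.8, 14.7 and 14.4 FPKM, a decrease of 9.38% (edgeR adjusted p 0.0331). Usp18, which removes the tag and restrains signalling at the type I receptor, was at 69.6, 70.9 and 70.0 FPKM against 76.6, 77.2 and 76.4 FPKM. This decrease of 9.11% came with the narrowest spread of the called members (log2 fold change -0.14, SE 0.0289, edgeR adjusted p 0.0182). For each of these 3 called genes all Hnf3a values were below all pcDNA values, as for 8.7% of all genes tested. Trim25, a ligase that activates the RNA sensor RIG-I, had a log2 fold change of 0.0056. Whether the called genes differed from Isg15 or Trim25 in their change was not tested. In the annotation Uba7 and Herc6 each overlap an unnamed gene model on the same strand, and Usp18 overlaps one on the opposite strand.

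Of the 8 sensors and RNA-binding effectors, 2 fell, where 2.13% of all genes tested were called lower. Dhx58 codes for LGP2, a helicase that regulates RIG-I and MDA5, and was at 31.5, 32.7 and 32.9 FPKM against 35.5, 36.4 and 35.3 FPKM (log2 fold change -0.15, SE 0.0335, edgeR adjusted p 0.0254). The signalling helicases were not called. Ddx58, which codes for RIG-I, had a log2 fold change of -0.0019, and Ifih1, which codes for MDA5, had one of 0.045 (SE 0.0307, edgeR adjusted p 0.601) although its values did not overlap, at 20.6 to 21.2 FPKM against 19.9 to 20.2 FPKM. Ifi204, a DNA-binding protein of the HIN-200 family, was at 40.8, 40.5 and 39.8 FPKM against 47.5, 46.4 and 44.1 FPKM, a decrease of 12.7% (log2 fold change -0.20, SE 0.0358, edgeR adjusted p 0.00745). Its neighbour Mndal, the least abundant member at 2.91 FPKM, differed by -0.24 on the log2 scale (SE 0.0996, edgeR adjusted p 0.285). Ifi211, a relative that is no member, shares 96.9% of 1363 aligned bases with Ifi204, so the split of reads between them is uncertain. Ifi211 was itself lower (log2 fold change -0.26, edgeR adjusted p 0.000799). Zbp1, a sensor of Z-form nucleic acid and the most abundant gene of this family, was at 115, 120.5 and 125.2 FPKM against 120.2, 121 and 123 FPKM, with the groups mixed (log2 fold change -0.022, edgeR adjusted p 0.867). Eif2ak2, the kinase PKR that stops translation, and Adar, which edits double-stranded RNA, had log2 fold changes of -0.033 and 0.021.

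Among the IFIT proteins, which bind viral RNA and block its translation, 1 of 4 fell (2.13% of all genes tested were called lower). Ifit2 was at 143, 140.4 and 135 FPKM against 154, 160.1 and 149 FPKM (log2 fold change -0.15, SE 0.0335, edgeR adjusted p 0.0223), and it was the only called member with a mean level of at least 100 FPKM. Ifit1 was lower in every Hnf3a library without passing the test (log2 fold change -0.076, edgeR adjusted p 0.235). Ifit3, the most abundant of the family, was at 749, 734 and 742 FPKM against 722, 728 and 725 FPKM. All Hnf3a values were higher there, by a log2 fold change of 0.025 (SE 0.0233, edgeR adjusted p 0.74), which was no larger than the error. Ifit3b had a log2 fold change of -0.019. The transcripts of Ifit3 and Ifit3b were 97.8% identical over 1700 bases, so the split of reads between them is uncertain. The 4 genes lie within chromosome 19, 34550694 to 34650009, and the difference of Ifit2 from its neighbours was not tested.

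Of the MX and other GTPases, all 4 had Hnf3a values below all pcDNA values, and 1 passed the test. Over all genes tested 8.7% had all Hnf3a values lower, or 487 of the 4557 genes at 10 to 100 FPKM, where these 4 lie. The share called lower was 2.13%. Mx1, a GTPase that blocks influenza viruses, was at 19.2, 19.3 and 18.9 FPKM against 21.6, 20.7 and 20.9 FPKM (log2 fold change -0.14, SE 0.0359, edgeR adjusted p 0.0473). This call lay nearest to the threshold. Mx2, whose transcript shares stretches with that of Mx1 at 94.8% identity, had a log2 fold change of -0.14 (SE 0.0413, edgeR adjusted p 0.118), and Ifi47, of the immunity-related GTPases, one of -0.14 (SE 0.0457, edgeR adjusted p 0.156). Ifi44 was the most abundant of them, at 45.4, 46.9 and 45.7 FPKM against 49.2, 50.1 and 48.4 FPKM (log2 fold change -0.11, SE 0.0294, edgeR adjusted p 0.0765).

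The oligoadenylate synthetases and their relatives are named for enzymes that sense double-stranded RNA and make the activator of RNase L. None of the 7 genes of this family was called. Their log2 fold changes ran from -0.11 (Oas1b) to 0.011 (Oas1a) with a median of -0.046, and 5 of the genes lie within chromosome 5, 120730333 to 120907521. Oasl1, which limits translation of Irf7 in mice, was the most abundant, at 420.0, 440.5 and 439 FPKM against 453, 455 and 455 FPKM (log2 fold change -0.078, SE 0.0249, edgeR adjusted p 0.144). Its pcDNA values were very close together and all above the Hnf3a values. Oas1a and Oas1g, whose transcripts were 97.6% identical over 1861 bases, had log2 fold changes of 0.011 and -0.075.

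The factors that read the interferon signal were not called. Irf7, which amplifies interferon production, was at 176, 180.0 and 181 FPKM against 177, 175 and 176 FPKM, with overlapping groups (log2 fold change 0.014, 95% interval -0.040 to 0.069). Stat2 and Irf9, 2 parts of the complex that binds the response element, had log2 fold changes of -0.056 (95% interval -0.12 to 0.010) and -0.030 (95% interval -0.12 to 0.058). These intervals exclude decreases as large as that fitted for Parp14, but not small ones.

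The remaining families had no called member. Rsad2, which codes for viperin and makes a chain-terminating nucleotide, was at 469, 485 and 475 FPKM against 506, 509 and 493 FPKM. Its groups did not overlap, and its log2 fold change of -0.087 (SE 0.0233) narrowly missed the threshold (edgeR adjusted p 0.0663). Its neighbour Cmpk2, a nucleotide kinase, and the exonuclease gene Isg20 also did not overlap between groups, with log2 fold changes of -0.054 and -0.12. Trim30a, a ligase of the TRIM family, was at 40.8, 40.8 and 38.2 FPKM against 43.2, 43.4 and 41.5 FPKM (log2 fold change -0.11, SE 0.0362, edgeR adjusted p 0.184). Trim21, an antibody receptor in the cytosol, and Sp100, a nuclear body protein, had log2 fold changes of -0.033 and -0.082. Ifitm3, which hinders fusion of viruses with cell membranes, was the most abundant of all members, at 899, 854 and 891 FPKM against 852, 863 and 920.1 FPKM (log2 fold change -0.0035, 95% interval -0.077 to 0.070). Its sign turned under several alternatives. Bst2, which tethers budding viruses to the cell surface, had a log2 fold change of -0.011, and Lgals3bp, Tor3a and Rtp4 had ones of -0.049, -0.074 and -0.093.

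**Figure D2:**
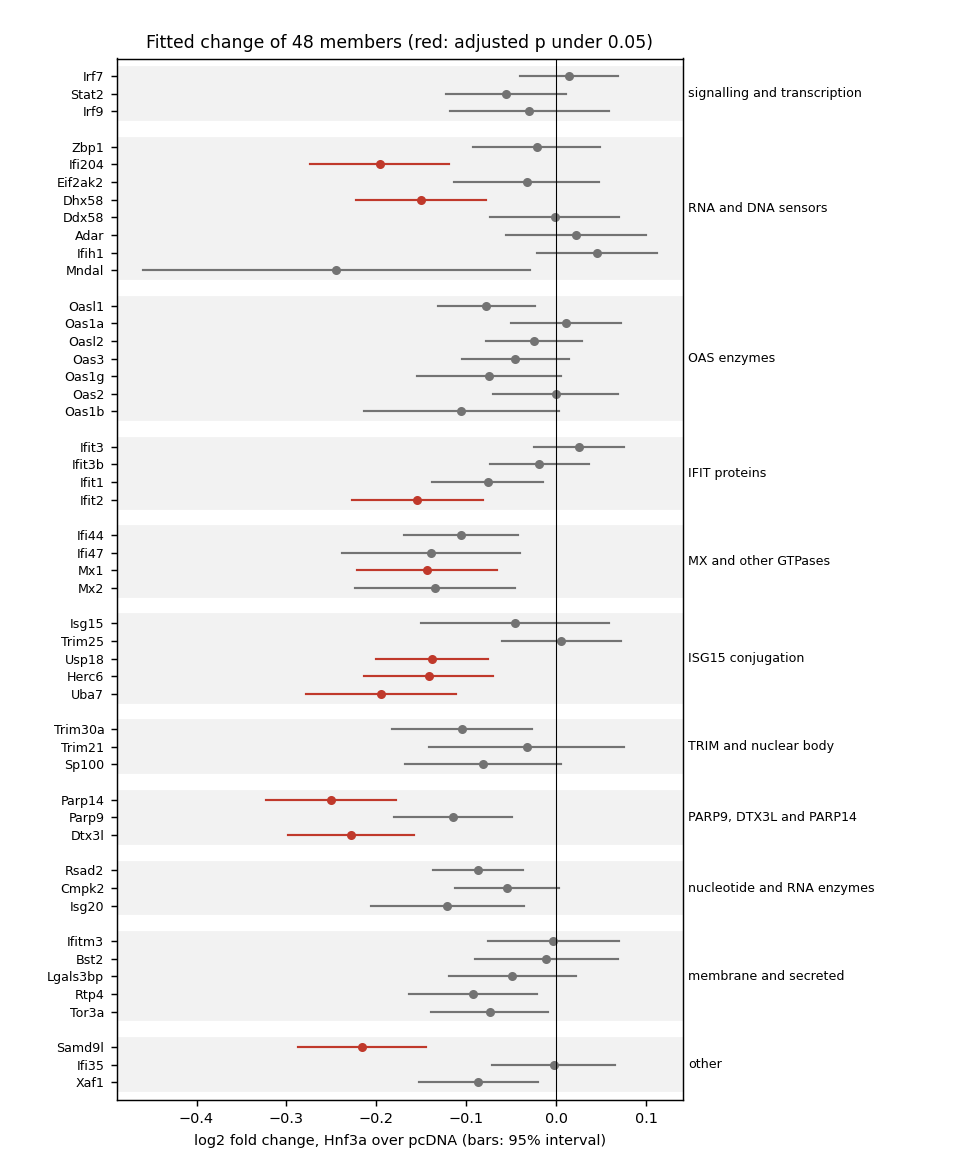
The plot gives the fitted log2 fold change of 48 genes, Hnf3a over pcDNA, with 95% intervals as bars and the 10 genes with an adjusted p under 0.05 in red. Ifi27l2a, at 1.04, lies outside the axis and is left out. The red genes lie between -0.25 and -0.14, and the interval of Mndal, the least abundant gene, is the widest.

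The calls fell among genes of middle abundance. Of the 29 members at 10 to 100 FPKM, 9 were called lower (3.64% of all genes at that level), with a median log2 fold change of -0.11. Of the 16 members at 100 FPKM or more, 1 was called lower (7.77% of all genes at that level), with a median of -0.024, although the standard errors of these abundant genes were smaller (median 0.0284 against 0.0332). The 4 members at 1 to 10 FPKM were Mndal, Ifi27l2a, Sp100 and Trim21, and of these only Ifi27l2a was called. Whether the abundance groups differed was not tested.

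**Figure D3:**
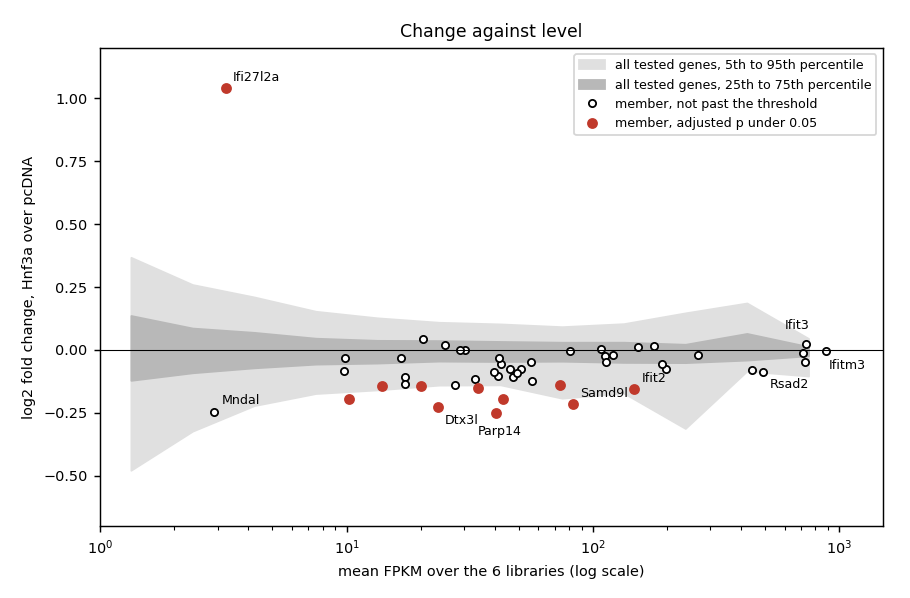
The plot sets the log2 fold change of each of the 49 genes against its mean FPKM over the 6 libraries on a log axis, with bands for the 5th to 95th and the 25th to 75th percentile of all tested genes at a like level. Called members (red) lie between 10.2 and 147 FPKM except Ifi27l2a at 3.24 FPKM, and the most abundant genes lie close to 0.

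Split by the promoter match, the 17 members with a response element core in the promoter had a median log2 fold change of -0.033 and 0 called lower at the adjusted threshold (edgeR). The 19 with an entry but no match had a median of -0.082 and 5 called lower, which were Ifit2, Uba7, Herc6, Dtx3l and Samd9l. The 13 without an entry had a median of -0.11 and 5 called lower. Over all genes tested 2.13% were called lower, a share not counted apart for genes with and without a match. This split was made after the changes were known, the members with a match include copies such as Ifit3 with Ifit3b and Oas1a with Oas1g, and the difference was not tested.

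The calls near the threshold depended on single libraries. Without Hnf3a replicate 2, pcDNA replicate 1 or pcDNA replicate 2, the number of members called lower was 3 in each case, namely Parp14, Dtx3l and Samd9l. Over these 3 fits the adjusted p of the other 7 (Ifi204, Uba7, Usp18, Ifit2, Dhx58, Herc6 and Mx1) ran from 0.0576 to 0.225, at log2 fold changes of -0.20 to -0.12. Genes called lower over the whole table numbered 199, 202 and 200 in these fits, against 379 with all libraries. The number of members called lower was 5 without pcDNA replicate 3, when Ifi204 and Ifit2 were also called. The adjusted p of Uba7 and Usp18 was then 0.056 and 0.0594. Without Hnf3a replicate 1 the number of members was 8, with Dhx58 at 0.0538 and Mx1 at 0.0563. Without Hnf3a replicate 3 it was also 8, with Ifit2 at 0.066, Herc6 at 0.0869, Mx1 at 0.108 and Isg20 called in addition. With limma on log2(FPKM + 0.1) it was 4, the same 3 genes and Usp18. Leaving out both Hnf3a replicates 2 and 3 leaves 1 Hnf3a library against 3, which is assumed to vary as the pcDNA libraries did, so its calls are not read as support. The log2 fold changes of the 10 called genes stayed below 0 in all of these fits.

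Above the antiviral genes in the pathway stand the interferons, their receptors and the proteins that relay and start the signal. Across 6 lists of such genes together with the guanylate-binding proteins and the genes of MHC class I presentation, 69 genes were tested, 21 were lower, 0 were higher, and the median log2 fold change was -0.12, where 2.13% of all genes tested were called lower and 1.04% higher. The log2 fold change was below 0 for 60 of the 69, against 49.8% of all genes. At an unadjusted p under 0.05, in either direction, the number was 36 of the 69, against 2412 of all 17824 genes tested. DESeq2 called 23 of the 69 lower and 0 higher, where it called 824 genes in all, 502 of them lower. The interferon gene Ifnb1 had the largest change. Its estimated counts were 8, 23 and 19 with HNF3α against 106, 91 and 86 with the empty plasmid, or 0.135 to 0.385 FPKM against 1.56 to 2.08 FPKM. The Hnf3a values lay at or close to the floor of 12 counts, about 3 fragments, and the pcDNA values were clearly above it (log2 fold change -2.59, SE 0.357, edgeR adjusted p 0.000888). Ifne had a log2 fold change of 0.026 and was uneven among the Hnf3a libraries, with 77, 89 and 175 counts. No other type I interferon gene of the list passed 13 counts in any library.

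Of the 6 receptor genes, 3 fell, where 2.13% of all genes tested were called lower, a share that also stands beside the counts below. They were Ifnar2 of the type I receptor, at 9.52 to 10.4 FPKM against 11.5 to 11.9 FPKM (log2 fold change -0.25, edgeR adjusted p 0.0143), Ifngr2 of the type II receptor (-0.34, edgeR adjusted p 0.00115) and Il10rb, a chain of the type III receptor (-0.25, edgeR adjusted p 0.0192). Ifnar1, the other type I chain, had a log2 fold change of -0.15 (edgeR adjusted p 0.0777). Among 13 genes of JAK-STAT and IRF signalling, Irf1 (-0.16, edgeR adjusted p 0.0161) and Irf5 (-0.37, edgeR adjusted p 0.00804) fell, while the kinase gene Jak1 had a log2 fold change of -0.045. Of 11 genes that switch on interferon, Ikbke, a kinase that phosphorylates IRF3 and IRF7, was lower (-0.35, edgeR adjusted p 9.34e-05). Without Hnf3a replicate 2 or without pcDNA replicate 1 the adjusted p of Ifnar2, Il10rb, Irf1 and Irf5 lay between 0.0741 and 0.112. It was also over 0.05 for Ifnar2 without pcDNA replicate 2 (0.0528) or 3 (0.0637), for Il10rb without Hnf3a replicate 1 (0.0522) or pcDNA replicate 3 (0.091) and for Irf1 without pcDNA replicate 2 (0.0893), whereas Ifnb1, Ifngr2 and Ikbke kept theirs under 0.05 whichever library was left out.

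Genes better known as targets of interferon gamma had lower medians than the antiviral genes. Of 17 guanylate-binding and immunity-related GTPases, 8 fell, namely Gbp2, Gbp3, Gbp4, Gbp5, Gbp6, Gbp8, Gbp9 and Gm4951, with log2 fold changes from -0.67 (Gbp5, edgeR adjusted p 1.29e-06) to -0.12 (Gbp3). The median of this list was -0.18, and 2.13% of all genes tested were called lower. Of 20 tested genes of MHC class I presentation, 6 fell. They were the peptide transporter gene Tap1, the chaperone gene Tapbpl, the immunoproteasome gene Psmb10, the proteasome activator genes Psme1 and Psme2, and Nlrc5. Nlrc5 codes for the activator of the class I genes. The log2 fold changes of the 6 ran from -0.40 (Nlrc5) to -0.13 (Psme1) around a list median of -0.13. The log2 fold change was below 0 for 18 of the 20, against 49.8% of all genes tested. The most abundant genes of the list, B2m, H2-D1 and H2-K1, were not called, at -0.015, 0.031 and -0.014. The immunoproteasome genes Psmb8 and Psmb9 were not called either (edgeR adjusted p 0.102 and 0.0837). Of the 14 called genes of both lists, Gbp2, Gbp4, Gbp5, Gbp6 and Psme2 passed the threshold in every alternative run. Over all 6 lists the number called lower was 11 without Hnf3a replicate 2 or pcDNA replicate 1 and 12 without pcDNA replicate 2 or pcDNA replicate 3. These lists were compared with the 49 genes only by their counts and medians, and no difference between lists was tested. Close copies among the guanylate-binding genes share sequence, so single members are less certain than the group.

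**Figure D4:**
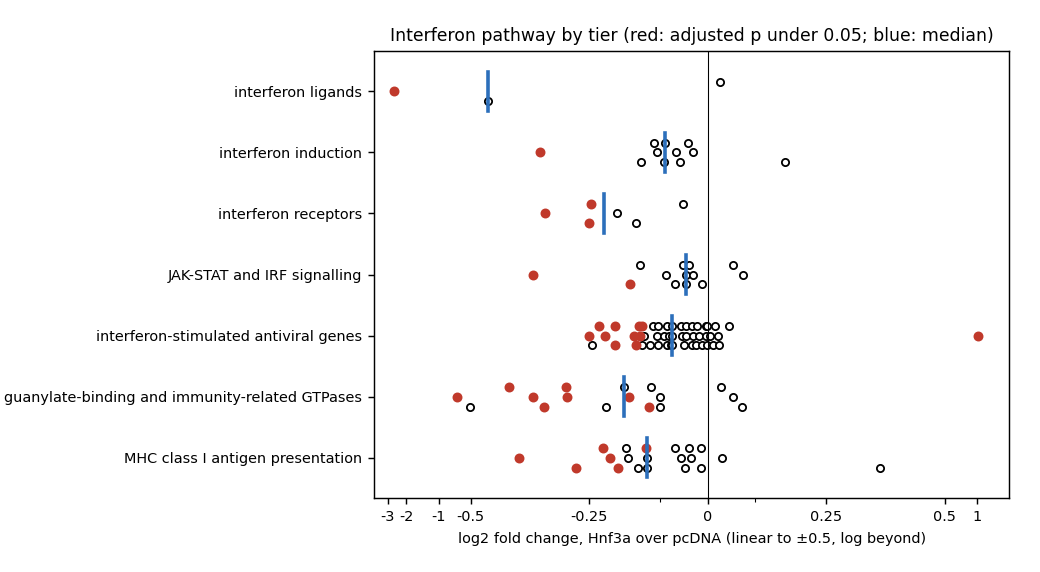
Each point is the log2 fold change of 1 tested gene, Hnf3a over pcDNA, in a row for its place in the pathway, with red for an adjusted p under 0.05 and a blue bar at the row's median. The axis is linear between -0.5 and 0.5 and logarithmic beyond. The antiviral genes have a median of -0.075, near 0, the receptors one of -0.22, and Ifnb1 lies far to the left at -2.59.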

How the data were processed

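Polyadenylated RNA of 6 samples was sequenced as paired reads of 150 bases, per the labels from strand-marked libraries with unique molecular identifiers. The submitters' processing notes name cutadapt 1.9, HISAT2 2.0.4, UMI-tools, StringTie 1.3.4d, DESeq2 and edgeR and the build mm10, with no role or order. The authors deposited an estimated count, a whole number, and an FPKM value for each gene and library. Annotation and strand use in counting are not given in the sources used here. More genes had exactly 4 counts than 3 or 5, so 1 fragment was taken as about 4 counts and the floor as 12 counts, 0.169 to 0.198 CPM, which covers counting error only.

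Counts were filtered with filterByExpr, scaled by TMM and tested two-sided with edgeR 4.0.16 (glmQLFit, robust; glmQLFTest) in R 4.3.3, adjusted over all genes with a threshold of 0.05. Standard errors were derived from the size of each fold change and its F statistic. FPKM served for levels. Alternatives were other scalings and filters, DESeq2 1.42.0, limma 3.58.1 on log2(FPKM + 0.1, 1 or 0.01), counts divided by 4, the replicate number as a block and leaving out libraries. The procedure was tested on simulated data. Coordinates are those of the table, and for 42 of the 49 genes they were identical to GENCODE vM21 (GRCm38), which also gave overlaps and, by alignment of transcripts, close copies. Promoter sequences were from RefSeq (GRCm38.p6).

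The 49 genes, the pathway and marker lists and the promoter comparison were chosen with earlier results of these data known. Values in every library were given for called members, for the most abundant member of each family, and for those without overlap that differed by 0.5 or more on the log2 scale.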

Additional observations from a re-analysis of the deposited data

How the results depend on the processing

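The median log2 fold change of the 49 genes stayed between -0.086 and -0.063 in all 17 alternatives, and scaling moved the median of all genes to at most 0.0126. Of the called genes, Parp14, Dtx3l and Samd9l passed the threshold in all 17, Usp18 and Ifi27l2a in 12, Ifi204 in 10, Ifit2 and Uba7 in 9, Dhx58 and Herc6 in 7 and Mx1 in 3, each with the same direction throughout. The number of members called lower was 10 in the reported test, 13 with DESeq2 and 4 in each of the 3 limma fits on log2(FPKM + pseudocount), and the genes of the pathway called lower were 21 in the reported test and 11, 10 and 11 with pseudocounts of 0.1, 1 and 0.01. Over all genes 565 were called in the reported test, 824 with DESeq2, and 236, 231 and 245 in the limma fits. Leaving out each library in turn gave 3 to 8 members lower, 0 to 1 higher and 11 to 19 pathway genes lower, while 263 to 643 genes were called in all. Without both Hnf3a replicates 2 and 3, added after the data were seen, these were 5, 0 and 12, with 322 genes called in all. That fit has 1 Hnf3a library, assumed to vary like the pcDNA libraries, and is a value rather than a check of the calls, although it is counted among the 17. Among single genes 155 alternative results lost the threshold, 4 gained it and 12 changed sign. Ifitm3 changed sign under total-count scaling (0.0082), with no filter (0.00017), with the 1 FPKM filter (0.0021), in the limma fits (0.0051 in each), without both Hnf3a replicates 2 and 3 (0.032) and when single libraries were left out (-0.024 to 0.030). Without 1 library at a time Isg15 ran from -0.085 to 0.015 and Zbp1 from -0.051 to 0.0055, positive only without Hnf3a replicate 1. Irf7 was at -0.00026 without both Hnf3a replicates 2 and 3. The cause of these moves was not tested.

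Over all genes tested, no pairing of libraries by replicate number was seen, which does not exclude a shared batch or culture. The deviations of same-numbered libraries from their group means correlated at -0.041, -0.010 and 0.010, and 1 of 6 libraries correlated best with its own number. With the replicate number as a block, 7 members were lower and 1 was higher, 18 pathway genes were lower, and 463 genes were called in all. Estimated counts set the depth limit, since members at 1 to 10 FPKM had a median standard error of 0.0749 against 0.0284 for those of at least 100 FPKM.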
